A study of Homo sapiens with 14 samples.

Results

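The genes described here encode the mitochondrial respiratory chain and ATP synthase, with the factors that assemble them and the RNAs of the mitochondrial genome. They were chosen by symbol alone: NDUF genes, SDHA to SDHD, UQCR genes, COX genes whose symbol continues with a digit, ATP5 genes and all MT- genes. The rule found 123 of the 12202 genes listed in either of 2 expression tables, 101 of them encoded in the nucleus and 22 in the mitochondrion. The table for siRNA listed 112 of them and the table for the enhancer deletion all 123. Of the nuclear members, 76 are structural subunits. The others are assembly or accessory factors (19), pseudogenes (3), a near-identical copy (1) and antisense RNAs (2).

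The respiratory chain passes electrons from NADH through complex I, and from succinate through complex II, to complex III and on to complex IV, which reduces oxygen. Complexes I, III and IV pump protons across the inner mitochondrial membrane, and complex V (ATP synthase) uses the gradient to make ATP. Complex II is encoded entirely in the nucleus, while the other complexes are built from products of both genomes, so their assembly needs both. Endothelial cells draw much of their ATP from glycolysis and use mitochondria largely for signalling and biosynthesis.

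All 14 libraries came from teloHAEC, a line of human aortic endothelial cells made immortal with telomerase, purchased and grown in medium with VEGF supplement. In the siRNA arm, 4 libraries of cells reverse transfected with siRNA against CALCRL, which encodes the calcitonin receptor-like receptor, were compared with 4 libraries of cells given scrambled siRNA, at 24 hours. In the deletion arm, 3 libraries of cells electroporated with Cas9 and guides flanking an enhancer of CALCRL were compared with 3 libraries of cells given Cas9 with a control guide against HPRT, after 2 days. Libraries were made from the 3' ends of polyadenylated RNA, so a read reports the last stretch of a transcript. Nothing in the labels says whether replicates were separate cultures, so p-values measure the spread between these libraries, which may be technical.

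Each arm is known here only through the authors' deposited table, with 1 row per gene: a normalised count averaged across the arm, the log2 ratio of treated to control (log2 fold change), its standard error (SE) and a DESeq2 p-value. No value of a single library was given, so neither the values per library, their overlap between groups nor their depth can be shown. For each gene below, the fold change, its SE and its adjusted p are those of the authors' deposited table for the arm named. Group means in normalised counts were derived from them. A gene is said to have risen or fallen where the authors' adjusted p was under 0.05. The tables were normalised separately, so levels in one are not on the scale of the other.

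CALCRL was lower in both arms, at 34.0% of the control group (95% interval 27.1% to 42.7%) with siRNA and 36.2% (20.2% to 64.7%) after the deletion. Precision differed: over all genes the median SE of the log2 fold change was 0.17 for siRNA and 0.41 for the deletion. Of 10 endothelial markers, 9 were listed in both tables and PECAM1 was in neither. Their summed mean was 6429 normalised counts in siRNA controls and 6521 with siRNA. In the deletion arm it was 6496 and 5577, and CDH5 (log2 fold change -1.44) and KDR (-1.05) fell. There 4 of the 9 had higher values and 5 lower, none was called higher, and the median log2 fold change was -0.01. None of 5 fibroblast markers was listed, nor the leukocyte markers PTPRC, CD14 and CD3E. CD68, the remaining leukocyte marker, was listed, at 7.01 normalised counts in deletion controls and 17.7 after deletion (log2 fold change 1.33, adjusted p 0.241). Of 4 epithelial markers KRT8 and KRT18 were listed, and their sum was 1992 in deletion controls and 4298 after deletion, with KRT18 called higher (log2 fold change 1.13). The smooth muscle or pericyte markers listed, ACTA2 and RGS5 of 6, summed to 4435 and 3942. What part these markers have in the results was not tested, and in bulk RNA fewer cells of a type cannot be told apart from less RNA per cell.

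The siRNA against CALCRL was accompanied by little movement of these genes. The median log2 fold change was 0.01 over 99 nuclear members and -0.07 over the 13 mitochondrial mRNAs, against 0.00 over the whole table. Only 3 of 112 members (2.68%) were called, beside 3.46% of all 11261 genes, and all of them fell, beside 2.42% of all genes called lower. COX6A1 and COX8A encode small nuclear subunits of complex IV, and ATP5G3 encodes the membrane c subunit of the ATP synthase ring.

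COX6A1 stood at 535 normalised counts in the scrambled group and 290.1 with siRNA, which is 54.2% of control (95% interval 45.6% to 64.4%). Its log2 fold change was -0.88 (SE 0.13) with a DESeq2 adjusted p of 1.37e-09. COX8A stood at 1767 and 1195, or 67.6% (60.4% to 75.8%), with a log2 fold change of -0.56 (SE 0.08, adjusted p 5.17e-09). ATP5G3 stood at 2512 and 1735, or 69.1% (59.8% to 79.9%), with -0.53 (SE 0.11, adjusted p 6.88e-05). The remaining nuclear subunits of complex V lay between -0.21 (ATP5A1) and 0.13 (ATP5E), and the paralogs of ATP5G3 were at -0.02 (SE 0.10) for ATP5G1 and 0.11 (SE 0.09) for ATP5G2. COX6A1P2, a processed copy of COX6A1 listed at a mean of 16.8 normalised counts, was at -0.87 (SE 0.41, adjusted p 0.348). Reads of the parent and the copy may have been split between them in counting, so the pair is uncertain.

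The transcripts of COX8A and ATP5G3 share a word of 7 bases, GTAACAA, which earlier work on these data had singled out after values were seen, so its presence supports nothing. The sites are printed because these are members that fell with siRNA. The word is in capitals, within 11 bases on each side, from GENCODE 29 transcripts:
COX8A: gggtcccccttGTAACAAtaaaatctatt
ATP5G3: ttgtttgccatGTAACAAattactgcttg
In COX8A the word lies in the 3' UTR, 20 bases from the end of a transcript of 507 bases. In ATP5G3 the word overlaps the stop codon and so is not wholly in the 3' UTR. COX6A1, which had the largest decrease of the 3, does not carry the word in its 3' UTR. Among nuclear members with an annotated 3' UTR, 8 of 96 (8.33%) carried it, beside 10.3% of 10638 genes. Median log2 fold changes with siRNA were -0.09 for the 8 and 0.01 for the other 88, and over all genes -0.12 with and 0.01 without the word.

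After the enhancer deletion many more members were called, and in both directions. In all, 33 of 123 members (26.8%) changed, beside 15.8% of all 11830 genes tested. Once genes averaging under 50 normalised counts were left out, the shares were 33.0% of members and 22.2% of all genes. Of the 123 members 21 rose, beside 7.4% of all genes tested, and 12 fell, beside 8.44%. The share of members that fell was thus near that of all genes. The nuclear structural subunits held 28 of these calls among 76 (36.8%), 18 higher and 10 lower; their log2 fold changes had a median of 0.15 and a range from -3.16 to 1.63. The summed counts of the 76 genes came to 1.52% of all normalised counts in the control group and 1.47% after deletion. Student's t, with the residual degrees of freedom of each arm (6 for siRNA and 4 for deletion), was also tried in place of DESeq2's normal reference. No member then passed in either arm, with 6 and 29 at an unadjusted p under 0.05. Of all genes only 5 of 11261 passed for siRNA and 0 of 11830 for deletion, so this is no result about the members. With the deletion Wald statistics divided by their robust SD over all genes, no member and 0 of 11830 genes passed.

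**Figure D1:**
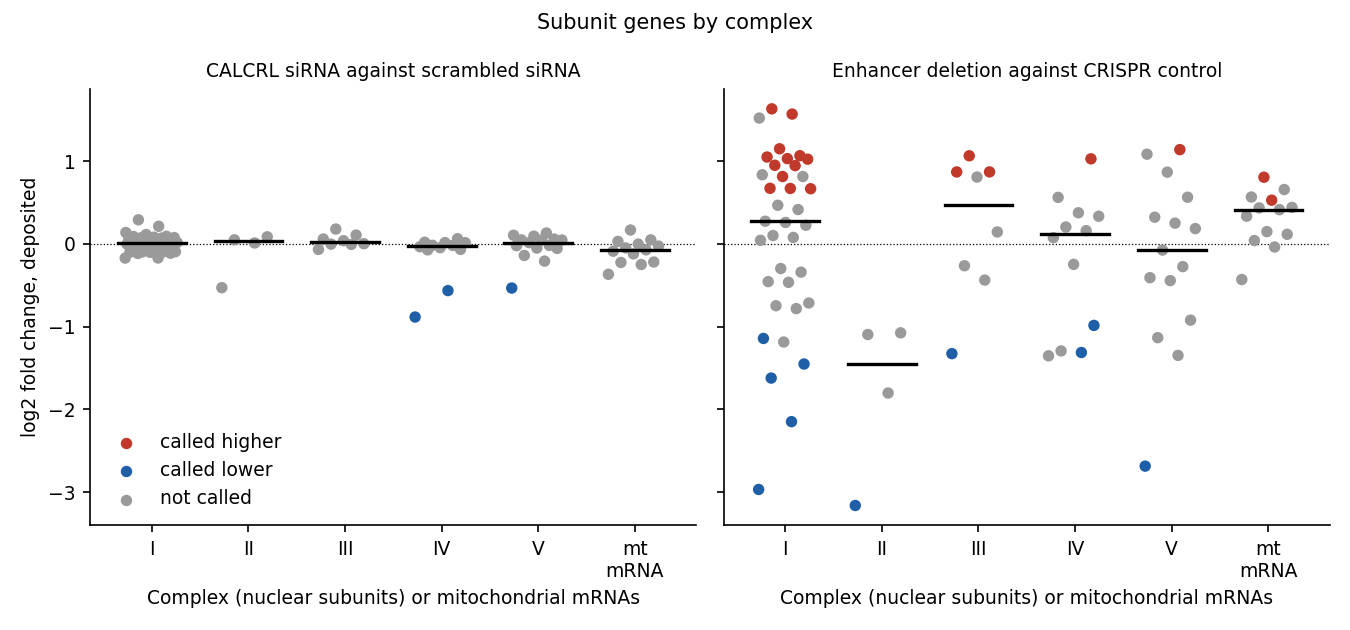
Deposited log2 fold change (vertical axis) of each nuclear structural subunit by complex, and of the 13 mitochondrial mRNAs (mt mRNA), for siRNA on the left and enhancer deletion on the right. Points are genes, coloured by the authors' adjusted p under 0.05, and black lines are medians; siRNA values sit near 0 except COX6A1, COX8A, ATP5G3 and the uncalled SDHD, while deletion values spread from -3.16 to 1.63.

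Complex I, the NADH dehydrogenase, held most of the calls. Of its 37 nuclear subunits 13 rose and 5 fell (48.6%), and the median log2 fold change was 0.27. The 7 nuclear core subunits, which carry the flavin and the iron-sulfur clusters, had a median of 0.81. Of these 3 rose and none was called lower. NDUFS8, which binds iron-sulfur clusters in the arm that leads to ubiquinone, rose from 228 to 708 normalised counts, a log2 fold change of 1.63 (SE 0.45, adjusted p 0.00637). NDUFV1, which binds the flavin and NADH, rose from 364 to 744 (log2 fold change 1.03, SE 0.30, adjusted p 0.00991). NDUFS7, a neighbouring iron-sulfur subunit, rose from 214 to 476 (1.15, SE 0.43, adjusted p 0.0482). Among uncalled core subunits NDUFS1 was at 0.23, NDUFS3 at 0.10 and NDUFV2 at 0.81 with an SE of 1.05. NDUFV2 was listed at a mean of 15.1 normalised counts in the deletion table and at 606 in the siRNA table. The same means were 554 and 408 for NDUFV1 and 675 and 654 for NDUFS3. Why NDUFV2 was so low in the deletion arm was not tested. Its uncertain value of 0.81 is also the median of the 7 core subunits.

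The 30 accessory subunits of complex I, which surround the core and stabilise it, split most widely, with 10 higher and 5 lower. NDUFA11, a membrane subunit, rose from 396 to 1176 normalised counts (log2 fold change 1.57, SE 0.33, adjusted p 0.000182), that is to 297% of control (95% interval 190% to 464%). Smaller increases were called for NDUFA9 (1.07), NDUFB10 (1.05), NDUFC2 (1.02), NDUFS6 (0.95), NDUFA6 (0.95), NDUFA10 (0.82), NDUFV3 (0.67), NDUFB8 (0.67) and NDUFB9 (0.67). In the opposite direction NDUFB3, of the distal membrane arm, stood at 189.8 in controls and 24.2 after deletion, or 12.8% of control (5.38% to 30.3%; log2 fold change -2.97, SE 0.64, adjusted p 0.000258). NDUFC1 stood at 726 and 164 (-2.15, SE 0.40, adjusted p 1.78e-05). NDUFA1, an X-linked membrane subunit needed for assembly, stood at 1192 and 387 (-1.62, SE 0.44, adjusted p 0.00496). NDUFB5 (-1.45) and NDUFB4 (-1.14) also fell. Increases and decreases thus occurred within the membrane arm, where NDUFB10, NDUFB8 and NDUFB9 rose while NDUFB3, NDUFB4 and NDUFB5 fell. NDUFS5, another accessory subunit, was at 0.26 (adjusted p 0.438). Assembly factors of complex I mostly had lower values: 6 of the 7 NDUFAF genes were below 0, with a median of -0.67. Only NDUFAF6 was called (-1.01, SE 0.36), and this share of 14.3% is near the 15.8% of all genes. NDUFAF5 and NDUFAF7 averaged 47.0 and 43.7 normalised counts in the deletion arm, with SEs of 0.60 and 0.69.

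Complex II, the succinate dehydrogenase that also belongs to the citric acid cycle, was the complex in which every listed gene had a lower value, and the log2 fold changes had a median of -1.45 over its 4 subunits. SDHB, the iron-sulfur subunit, stood at 344 normalised counts in the control group and 38.4 after deletion, which is 11.2% of control (95% interval 5.88% to 21.2%; log2 fold change -3.16, SE 0.47, adjusted p 3.51e-08). The remaining subunits did not pass the test. SDHC, a membrane anchor, was at -1.80 (SE 0.97, adjusted p 0.194), SDHA, the flavoprotein, at -1.10 (SE 0.46, adjusted p 0.0816) and SDHD, the other anchor, at -1.07 (SE 0.71, adjusted p 0.309). With siRNA the 4 genes were at 0.01 (SDHA), 0.09 (SDHB), 0.05 (SDHC) and -0.53 (SDHD), none called. The siRNA SEs of SDHB, SDHC and SDHD were 2.78, 3.19 and 2.06 times those of genes at a like mean count. Of all 214 genes with such a ratio over 2, 206 were lower after deletion. What part this has in the values of complex II was not tested. SDHD averaged only 32.3 normalised counts in the deletion arm.

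Complex III, the cytochrome bc1 complex, had 3 of 8 nuclear subunits called higher and 1 called lower, with a median of 0.48. The small subunits UQCR11 (1.07, SE 0.30, adjusted p 0.00793), UQCRQ (0.87, SE 0.28, adjusted p 0.0178) and UQCR10 (0.87, SE 0.31, adjusted p 0.0372) rose. UQCRFS1, the Rieske iron-sulfur protein that is built in late in assembly, stood at 774 and 309 normalised counts (-1.33, SE 0.42, adjusted p 0.0173). UQCRB, a ubiquinone-binding subunit, was at -0.26 (SE 0.18, adjusted p 0.334).

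Complex IV, the cytochrome c oxidase, had 1 nuclear subunit higher and 2 lower of 12, with a median of 0.12. COX4I1, the subunit that binds regulatory nucleotides, rose from 2175 to 4439 normalised counts (log2 fold change 1.03, SE 0.29, adjusted p 0.00781). COX6C stood at 2596 and 1045 (-1.31, SE 0.43, adjusted p 0.0223). COX6A1 stood at 719 and 363 (-0.99, SE 0.34, adjusted p 0.0294). Of the 3 members called with siRNA it is the only one also called after deletion, where 26.8% of all members were called. Whether this overlap exceeds that of all genes was not tested. COX6A1 stood at 54.2% of control with siRNA and 50.5% (32.0% to 79.8%) after deletion. COX8A and ATP5G3, the other genes that fell with siRNA, had lower values in the deletion table as well but did not pass its test: -1.35 (SE 0.67, adjusted p 0.154) and -1.13 (SE 0.73, adjusted p 0.295). Among 10 assembly and accessory factors of complex IV, COX17, the copper chaperone, stood at 438 and 68.3 (-2.68, SE 0.44, adjusted p 5.22e-07), and COX20, a chaperone of the mitochondrially encoded subunit MT-CO2, rose (0.56, SE 0.20, adjusted p 0.0338).

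Complex V had 1 of 15 nuclear subunits higher and 1 lower, with a median of -0.07. ATP5C1, the central rotor shaft, stood at 904 and 140.4 normalised counts, 15.5% of control (95% interval 8.16% to 29.6%; log2 fold change -2.69, SE 0.47, adjusted p 3.62e-06). ATP5I, a small membrane subunit, rose from 1031 to 2273 (1.14, SE 0.33, adjusted p 0.00793). The catalytic subunits ATP5A1 and ATP5B were at -0.27 (SE 0.21) and 0.19 (SE 0.20), and the small subunits ATP5E and ATP5L at 0.25 (SE 0.17) and -0.92 (SE 0.44). None of these 4 was called. Beside 15.8% of all genes, the share of called subunits was 13.3% in complex V, 25% in complexes II and IV, 48.6% in complex I and 50% in complex III; complexes II and III have only 4 and 8 genes, and no test compared the complexes.

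**Figure D2:**
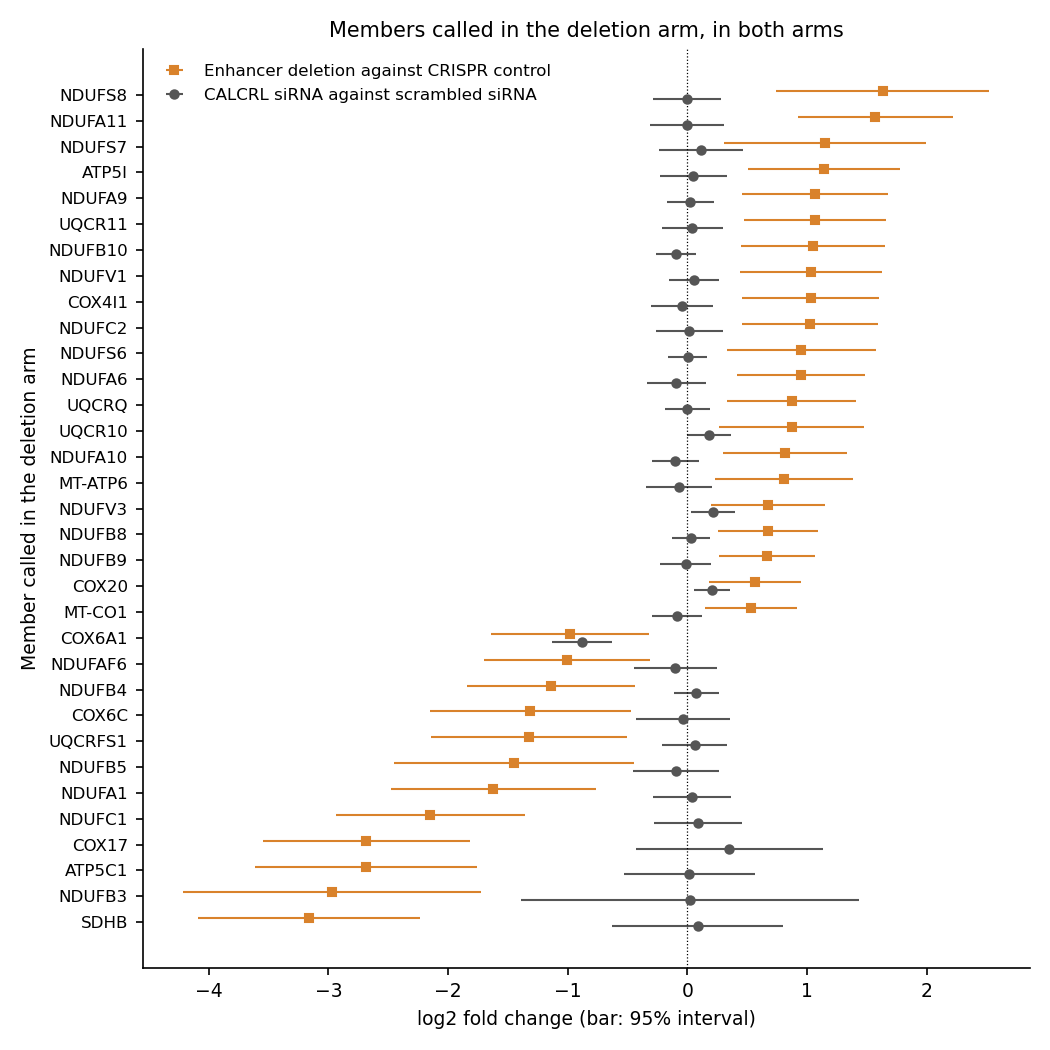
Log2 fold change (horizontal axis, bars are 95% intervals) of the 33 members called in the deletion arm, with the siRNA value of the same gene below each. Deletion values (squares) run from -3.16 for SDHB to 1.63 for NDUFS8, while siRNA values (circles) lie near 0 except for COX6A1.

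The mitochondrial mRNAs had mostly higher values after deletion, without large decreases. After deletion 11 of 13 had higher values and 2 lower (median log2 fold change 0.41), where 50.3% of all genes were higher. The 2 of 13 that were called (15.4%) are a share near the 15.8% of all genes. MT-ATP6, a membrane subunit of ATP synthase, rose from 8289 to 14496 normalised counts (log2 fold change 0.81, SE 0.29, adjusted p 0.0408). MT-CO1, the catalytic subunit of complex IV, rose from 1750.1 to 2525 (0.53, SE 0.20, adjusted p 0.0471). MT-ND3 (0.66, adjusted p 0.0643), MT-ND1 (0.57, adjusted p 0.0763), MT-ND4 (0.44, adjusted p 0.144), MT-ND5 (0.44, adjusted p 0.314), MT-CYB (0.41, adjusted p 0.291) and MT-CO3 (0.34, adjusted p 0.271) were above 0 without passing. MT-CO2 (0.15), MT-ATP8 (0.12), MT-ND6 (0.04) and MT-ND4L (-0.04) were close to 0, and MT-ND2 was at -0.43 (SE 0.18, adjusted p 0.0888).

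With siRNA 3 mitochondrial mRNAs were higher and 10 lower, none called, between -0.37 (MT-ND6) and 0.17 (MT-ATP8). Their summed share of all normalised counts was 2.53% in the scrambled group and 2.39% with siRNA, and 1.29% in the CRISPR control group and 1.59% after deletion. MT-ND6, the only protein gene on the light strand, was listed at 73.4 and 45.3 normalised counts in the siRNA and deletion tables. MT-ATP8 and MT-ATP6 overlap and lie on 1 transcript, as do MT-ND4L and MT-ND4, so these pairs are not independent and reads may have been assigned to either gene. In the deletion arm MT-ATP8 was at 0.12 (SE 0.30) and MT-ATP6 at 0.81 (SE 0.29). MT-ND4L was at -0.04 (SE 0.24) and MT-ND4 at 0.44 (SE 0.21). No test compared the genes within a pair. Apart from MT-ND6 the mitochondrial mRNAs lie on the same strand, and whether their values are independent was not tested.

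**Figure D3:**
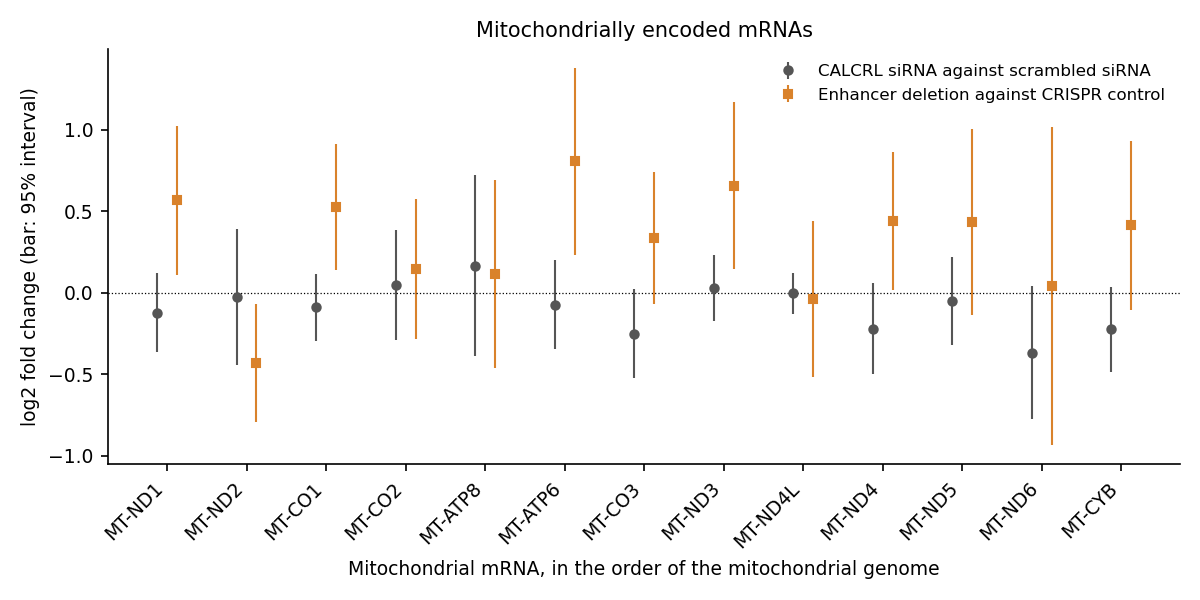
Log2 fold change (vertical axis, bars are 95% intervals) of the 13 mitochondrial mRNAs in genome order, for siRNA (circles) and enhancer deletion (squares). Deletion values lie above 0 for 11 genes, with MT-ATP6 at 0.81, and siRNA values lie between -0.37 and 0.17.

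The 9 mitochondrial rRNA and tRNA genes were listed only in the deletion table and none was called. The ribosomal RNAs MT-RNR1 and MT-RNR2 were at -0.01 (SE 0.34) and 0.25 (SE 0.23), at means of 17949 and 76208 normalised counts. Among tRNAs MT-TF was at 0.40 (SE 0.36) and MT-TL1 at -0.39 (SE 0.45). MT-TP (1.16), MT-TM (1.03), MT-TV (1.00), MT-TY (0.58) and MT-TT (0.26) were listed at means of 5.01 to 35.3 normalised counts, with standard errors from 0.59 to 1.41. The kit selects polyadenylated ends, and mature tRNAs carry no such tail.

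The response of a member in one arm was compared with that in the other by the difference of its deposited log2 fold changes, with adjustment over 10891 genes. For 26 of 112 members (23.2%) the arms differed, beside 13.7% of all genes, and 18 of the 26 were higher in the deletion arm. With the GC trend described below removed, 14 members differed (12.5%), beside 11.2% of all genes. Complex I held 15 of the 26 among 37 nuclear subunits. COX17 differed by 3.03 (SE 0.59, adjusted p 7.8e-05), SDHB by 3.25 (SE 0.60, adjusted p 2.67e-05), NDUFC1 by 2.24 (SE 0.44, adjusted p 9.87e-05) and ATP5C1 by 2.70 (SE 0.55, adjusted p 0.000152), all higher in the siRNA arm. NDUFA11 differed by -1.57 (SE 0.37, adjusted p 0.00111) and NDUFS8 by -1.64 (SE 0.48, adjusted p 0.0112). Among mitochondrial mRNAs MT-ATP6 (-0.88, adjusted p 0.0494) and MT-CO1 (-0.62, adjusted p 0.0444) differed. COX6A1 did not (0.10, SE 0.36, adjusted p 0.89). The arms also differ in delivery, control and time after treatment, which cannot be told apart here.

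The nuclear subunits that rose after deletion and those that fell had different median GC contents. Over the last 500 bases of the transcript, where 3' libraries are read, the median GC content was 50.5% for the 18 that rose, 41.5% for the 10 that fell and 43.5% for the 48 not called. Across the 76 genes, which come from the same libraries, Spearman's rho of GC content with the deletion log2 fold change was 0.44 (Pearson's r 0.42). Over 11630 genes of the table rho was 0.31. With siRNA rho was -0.09 over the 76 genes. NDUFS7 (70.2% GC), NDUFA11 (64.2%), NDUFS8 (63.2%) and NDUFV1 (62.0%) were among the richest in GC. With the GC trend of all genes removed, 5 rather than 13 nuclear subunits of complex I were called higher and 3 rather than 5 lower, and the calls of NDUFA11 (0.90, adjusted p 0.0520), NDUFS8 (0.99, adjusted p 0.131), NDUFV1 (0.43, adjusted p 0.375) and NDUFS7 (0.29, adjusted p 0.719) ended. Those of NDUFB10, NDUFS6, NDUFB8, NDUFV3, ATP5I, NDUFB4, NDUFB5, NDUFAF6, COX6C and UQCRFS1 ended as well, while SDHB, NDUFB3, NDUFC1, NDUFA1, ATP5C1, COX17 and COX6A1 were still called lower. The mitochondrial mRNAs then had 3 of 13 called higher, at a median of 0.38, where 12.1% of all genes were called in either direction.

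Several members with large decreases after deletion also varied widely among libraries of the siRNA arm. For 9 members the SE in the siRNA table exceeded 2 times the SE of genes at a like mean count (8.04%, beside 1.96% of all genes). These were NDUFB3 (5.62 times), COX17 (3.40), SDHC (3.19), MT-ATP8 (2.90), SDHB (2.78), ATP5C1 (2.58), MT-ND2 (2.20), SDHD (2.06) and COX6C (2.01). Of the 9, 8 had lower values after deletion and 5 were called lower. Over the 214 genes of the whole table with such a ratio, 206 were lower and 144 called lower (median log2 fold change -2.01). The nuclear subunits called lower had a median ratio of 1.67 and those called higher 1.02. The part of GC content and of this spread in the fold changes was not tested.

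**Figure D4:**
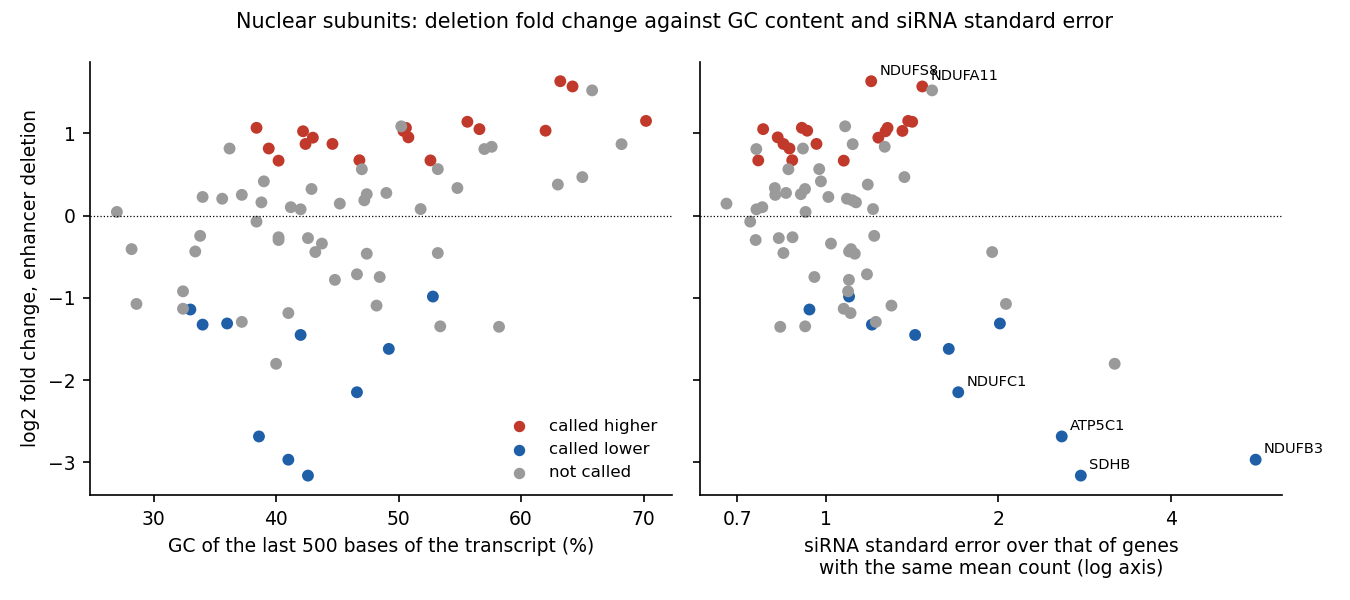
Deletion log2 fold change of the 76 nuclear subunits (vertical axis) against the GC content of the last 500 bases of the transcript (left) and against the siRNA standard error relative to genes of the same mean count (right, log axis). Points are genes; the 18 that rose have a median GC of 50.5% and no ratio over 2, and NDUFB3, SDHB and ATP5C1 lie at ratios of 5.62, 2.78 and 2.58.

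Promoters of these genes are known to be bound by the factors NRF1 and GABP, and by YY1. RefSeq promoters (GRCh38.p14, 250 bases before to 50 after the start) were matched for 62 of the 76 subunits. The NRF1 motif GCGCANGCGC was found on either strand in 15 of 62 (24.2%), beside 12.8% of 9170 genes of the deletion table and 6.28% of all 27305 promoters. It was present in 5 of 16 subunits that rose and 3 of 8 that fell. CCGGAAGT, the GABP motif, was in 9 of 62 (14.5%, beside 9.56%), and AAGATGGCG, the YY1 motif, in 8 of 62 (12.9%, beside 4.36%). The 100 bases before the start are printed for the pair with the largest increases and for a pair with large decreases, with an NRF1 match in capitals:
NDUFA11: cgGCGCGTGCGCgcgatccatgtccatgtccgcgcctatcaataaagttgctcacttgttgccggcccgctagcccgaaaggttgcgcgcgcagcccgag
NDUFS8: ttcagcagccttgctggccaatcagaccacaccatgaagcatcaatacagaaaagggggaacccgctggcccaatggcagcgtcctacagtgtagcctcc
SDHB: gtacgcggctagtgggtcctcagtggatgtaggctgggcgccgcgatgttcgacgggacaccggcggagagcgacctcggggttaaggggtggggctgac
ATP5C1: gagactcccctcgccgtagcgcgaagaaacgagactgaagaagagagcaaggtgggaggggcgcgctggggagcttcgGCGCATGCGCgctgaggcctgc
In GRCh38.p14 these lie at chr19:5903791-5903890 (minus strand), chr11:68030581-68030680 (plus), chr1:17054033-17054132 (minus) and chr10:7788077-7788176 (plus). The motif thus occurred upstream of a gene that rose and of a gene that fell, and a match of letters is a description of the sequence only.

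Genes of the same pathway outside the symbol rule were also mixed after deletion and uncalled with siRNA. Of 43 further assembly factors and subunits, 6 rose and 7 fell, beside 7.4% and 8.44% of all genes. SURF1, a complex IV assembly factor, rose from 28.3 to 99.7 normalised counts (log2 fold change 1.82, SE 0.50, adjusted p 0.00548). COA4 (-1.69, SE 0.36, adjusted p 0.000273) and TMEM126A (-1.97, SE 0.44, adjusted p 0.000527), an assembly factor of complex I, fell. C7orf55, an ATP synthase assembly factor, stood at 135.5 and 8.62 (-3.98, SE 0.70, adjusted p 3.63e-06).

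In the other lists the calls came to 3 of 28, 4 of 10 and 2 of 18 genes, beside 15.8% of all genes. Of 28 listed genes for mitochondrial transcription, RNA and genome maintenance, 2 rose (HSD17B10, 1.01, and ELAC2, 1.06, both of mitochondrial tRNA processing) and 1 fell (LRPPRC, -0.91, which stabilises mitochondrial mRNAs). Of 10 listed nuclear regulators, PPARGC1B (0.94) rose, while MYC (-2.36, SE 0.54), ESRRA (-2.17, SE 0.75) and GABPB1 (-1.05, SE 0.38) fell. Of 18 citric acid cycle and pyruvate dehydrogenase genes, IDH3B rose (0.86) and FH, the fumarase that acts after complex II, stood at 321.9 and 39.5 (-3.03, SE 0.47, adjusted p 9.12e-08). FH and MYC also had large siRNA standard errors for their mean count, at 3.19 and 2.34 times those of their peers. With siRNA none of these 4 lists held a called gene.

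The members that are no functional subunit or factor gave no call in the authors' deposited tables. ATP5L2, a copy of ATP5L, was at -0.29 (SE 1.05) after deletion, and the antisense RNAs COX10-AS1 and NDUFB2-AS1 at 0.06 (SE 1.04) and -0.90 (SE 1.09). The pseudogenes COX6A1P2, COX6CP1 and ATP5EP2 were at -1.64, -0.85 and 0.45. With the GC trend removed COX6A1P2 was called lower (-2.13, adjusted p 0.0319). In GENCODE 29 the last exons of NDUFC2 and NDUFB9 overlap THRSP and MTSS1 on the opposite strand, COX20 overlaps HNRNPU likewise, and NDUFB8 and NDUFA11 overlap unnamed transcripts on their own strand, so these values are uncertain where counting did not separate them.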

How the data were processed

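Library preparation used a QuantSeq 3' mRNA kit, per the labels' protocols, with single-end reads of 86 cycles. The submitters' processing notes name build hg19 and edgeR 3.24.3, while the file names name featureCounts and DESeq2; the aligner, annotation, filters and use of strand are not given in the sources used here. The authors' deposited tables hold normalised counts averaged per arm, log2 fold changes, a Wald score, and p-values adjusted by Benjamini-Hochberg. A test of counts was intended but could not be run without values per library, and depth is unknown.

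Intervals (95%), group means and the difference between the arms (normal reference, adjusted over genes in both tables) were computed with scipy 1.17.1. The difference was also run on simulated fold changes drawn with the deposited standard errors, which checks the code only. It cannot show whether those standard errors are right. In the deletion arm the robust SD of the Wald statistics was 1.87. The GC trend was removed with lowess (statsmodels 0.14.6, span 0.3). Transcripts and positions came from GENCODE 29 on GRCh38, matched by gene ID. GC content and 3' UTRs were those of the protein-coding transcript with the longest annotated 3' UTR, where a gene had one.

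Members, lists and named genes were chosen with earlier results of these data known. The rule named all MT- genes, up to 25 called members per arm with the lowest adjusted p, 10 with the lowest p of the arm difference, the 2 subunits of each complex with the highest siRNA mean, called genes of the pathway lists, and CALCRL. Other genes were named after their values were seen.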

Additional observations from a re-analysis of the deposited data

Results flagged for a closer look

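For 26 of 112 members (23.2%, beside 13.7% of all genes) the log2 fold change differed between the siRNA and the deletion arm. This is by the test of the difference itself (Benjamini-Hochberg adjusted p under 0.05 over 10891 genes). Those with the lowest adjusted p are given as siRNA minus deletion on the log2 scale. The difference was 3.25 for SDHB, 3.03 for COX17, 2.24 for NDUFC1, 2.70 for ATP5C1 and 1.66 for NDUFA1, which were lower after deletion. It was -1.57 for NDUFA11, -1.15 for NDUFB10, -1.04 for NDUFA6, -1.64 for NDUFS8 and -1.07 for COX4I1, which were higher after deletion.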

How the results depend on the processing

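No paired analysis was possible because neither deposited table has values per library, and leaving out a library, other normalisations and count filters before testing could not be run for the same reason. Against Student's t the number of called members went from 3 to 0 for siRNA and from 33 to 0 for deletion. For the difference between the arms it went from 26 to 0 (23 at an unadjusted p under 0.05). Of all genes only 5 of 11261, 0 of 11830 and 0 of 10891 passed, so this setting tells nothing particular to the members. The Wald statistics were also divided by their robust SD over all genes (1.11 for siRNA and 1.87 for deletion). This left 3 siRNA calls, 0 deletion calls (7 at an unadjusted p under 0.05) and 0 differences (6). Of all genes 262 of 11261, 0 of 11830 and 0 of 10891 were then called. With the GC trend removed, there were 21 deletion calls (17.1% of members, beside 12.1% of all genes). Of these 13 were higher and 8 lower, and 19 were also among the 33, with MT-ND3 and COX6A1P2 gained. The differences between the arms fell to 14 (12.5% of members, beside 11.2% of all genes). In the deletion arm MT-ND4L then reversed to 0.015. At an adjusted p under 0.01 there were 16 deletion calls (13.01% of members, beside 6.64% of all genes). There were then 7 differences between the arms (6.25% of members, beside 4.95% of all genes), so members were little above all genes there. Without the members of high siRNA standard error there were 28 deletion calls, 21 higher and 7 lower (24.6%, beside 15.8% of all genes). Centring on the median gene and a minimum mean of 50 normalised counts kept all 3 siRNA calls and all 33 deletion calls. These settings could hardly lose a call. The median log2 fold change of all genes was only 0.003 for siRNA and 0.004 for deletion. The called member with the lowest mean in the deletion arm, NDUFAF6, averaged 82.5 normalised counts. An adjusted p under 0.1 keeps every call by definition. It gave 43 deletion calls (34.96% of members, beside 22.94% of all genes). The minimum of 50 also raised the share of all genes called. In the deletion arm 35 of 106 members (33.0%) were then called, beside 22.2% of 8429 genes. Between the arms 29 of 100 members (29%) then differed, beside 19.1% of 7933 genes. Each value rests on 3 or 4 libraries per group.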
